A study of Mus musculus with 5 samples.

Results

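The genes described here are 33 imprinted genes of the mouse that lie outside the large H19-Igf2 and Kcnq1 domain and the Dlk1-Meg3 domain, and the measurement is where CTCF peaks were called around them. They were taken from a list of names, and all 33 of the 33 were found in the RefSeq gene table for mm10. A peak was assigned to a gene when its midpoint lay in the gene body or within 50 kb of either end. By that rule, 48 of the 22756 peaks of the whole list belonged to these genes, 31 of them in the window of a single gene and 17 in the windows of several. The genes fall into 15 domains or single loci.

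The peaks came from chromatin immunoprecipitation and sequencing of CTCF in NIH3T3, an immortalised mouse embryonic fibroblast line. All cells, controls included, stably carried H2B-mCherry, the rtTA3G transactivator and a TRE3G-controlled CDX2 gene, which encodes a homeobox factor of intestine and trophectoderm and is switched on by doxycycline. There were 2 CTCF libraries from cells given doxycycline for 6 h (the labels state 500 ng/µL, which is printed here unverified), 2 CTCF libraries from cells without doxycycline and 1 input library from cells without it. The sources used here do not say whether the line is 1 clone or whether replicates came from separate cultures. The authors merged both conditions into 1 list of intervals without heights or scores, so the effect of CDX2 on these genes was not tested, no value has a replicate spread, and the read depth behind a peak is unknown. Expression was not measured, so neither the imprinting of the genes nor the cell type could be checked, and the 2 parental alleles were not told apart.

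An imprinted gene is expressed from the allele of 1 parent. The difference is laid down in a germ line as DNA methylation at an imprinting control region, often a CpG-rich promoter methylated on the maternal copy. CTCF is a zinc finger protein that anchors chromatin loops and blocks contacts between enhancers and promoters, and at some sites its binding is lost when CpGs in the site are methylated.

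The promoter sequences of 4 of these genes are shown because 1 start was covered by a peak, and the other 3 lie in known imprinting control regions and were not. Only 3.58% of all 32817 RefSeq promoter windows overlapped a peak, so a start without one is the usual case. The sequences are RefSeq promoters on GRCm38.p6, the assembly behind mm10, each from 250 bases before to 50 bases after an annotated start and written along the gene's own strand. H13, the host gene of the imprinted retrogene Mcts2, had the only member promoter that a peak overlapped (chr2:152669211-152669510, plus strand). Capitals mark a match to the CTCF core, spelled here as CC, 3 bases of any kind, AG, 2 bases of any kind and GGC.
H13: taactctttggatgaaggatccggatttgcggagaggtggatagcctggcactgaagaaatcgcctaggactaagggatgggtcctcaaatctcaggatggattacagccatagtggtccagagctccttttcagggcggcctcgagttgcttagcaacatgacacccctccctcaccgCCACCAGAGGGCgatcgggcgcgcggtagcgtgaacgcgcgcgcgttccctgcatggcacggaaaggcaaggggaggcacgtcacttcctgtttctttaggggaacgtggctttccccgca
For the next 3 promoters, which no peak overlapped, capitals mark the CpG dinucleotides, the bases at which imprints are written. They are Mcts2 (chr2:152686898-152687197, plus strand), Peg3 (chr7:6730370-6730669, minus strand) and a start of Mest (chr6:30737800-30738099, plus strand).
Mcts2: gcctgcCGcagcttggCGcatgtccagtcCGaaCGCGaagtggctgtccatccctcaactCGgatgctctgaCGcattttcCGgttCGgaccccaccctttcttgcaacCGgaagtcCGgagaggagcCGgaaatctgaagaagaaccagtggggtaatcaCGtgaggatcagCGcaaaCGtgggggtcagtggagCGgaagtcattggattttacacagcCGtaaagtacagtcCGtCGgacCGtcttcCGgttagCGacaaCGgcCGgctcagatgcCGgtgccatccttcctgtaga
Peg3: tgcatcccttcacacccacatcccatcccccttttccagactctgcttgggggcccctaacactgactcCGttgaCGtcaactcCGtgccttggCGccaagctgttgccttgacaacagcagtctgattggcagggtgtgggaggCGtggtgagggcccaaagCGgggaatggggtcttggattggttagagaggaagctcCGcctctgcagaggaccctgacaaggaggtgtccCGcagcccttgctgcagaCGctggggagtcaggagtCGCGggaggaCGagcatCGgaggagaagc
Mest: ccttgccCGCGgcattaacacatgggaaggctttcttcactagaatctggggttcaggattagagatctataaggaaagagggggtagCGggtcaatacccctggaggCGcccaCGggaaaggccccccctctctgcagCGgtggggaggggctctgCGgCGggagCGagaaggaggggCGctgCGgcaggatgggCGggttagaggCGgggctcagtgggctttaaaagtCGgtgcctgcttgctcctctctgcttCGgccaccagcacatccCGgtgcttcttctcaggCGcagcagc
The match in H13, ccaccagagggc at positions 152669390 to 152669401 of chromosome 2, lay inside the peak and 4.5 bp from its midpoint. The Mcts2 window held 25 CpGs, that of Peg3 13 and that of Mest 17.

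Most of the 33 genes had a peak in their window, at about the rate of other genes. A peak lay in the body or within 50 kb of 23 of the 33 (69.7%), where 74.1% of 21779 protein-coding genes had one. The gene body itself held a peak in 11 of the 33 (33.3%), against 29.5% of protein-coding genes. A peak lay within 1 kb of a gene end at 2 of the 33 (6.06%), H13 and Kcnk9, against 12%. The median number of peaks per window was 1 for the members (quartiles 0 and 3, range up to 7) and 2 for protein-coding genes (0 and 4), but 1 for both with flanks of 10 or 25 kb or with peaks of at least median width. The members are longer, with a median of 46.7 kb against 17.2 kb. With protein-coding genes weighted to the members' length classes, in 10 equal classes, 78.2% had a peak in the window, 39.3% in the body and 12.3% at an end. These shares are descriptions of a chosen list without a test.

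**Figure D1:**
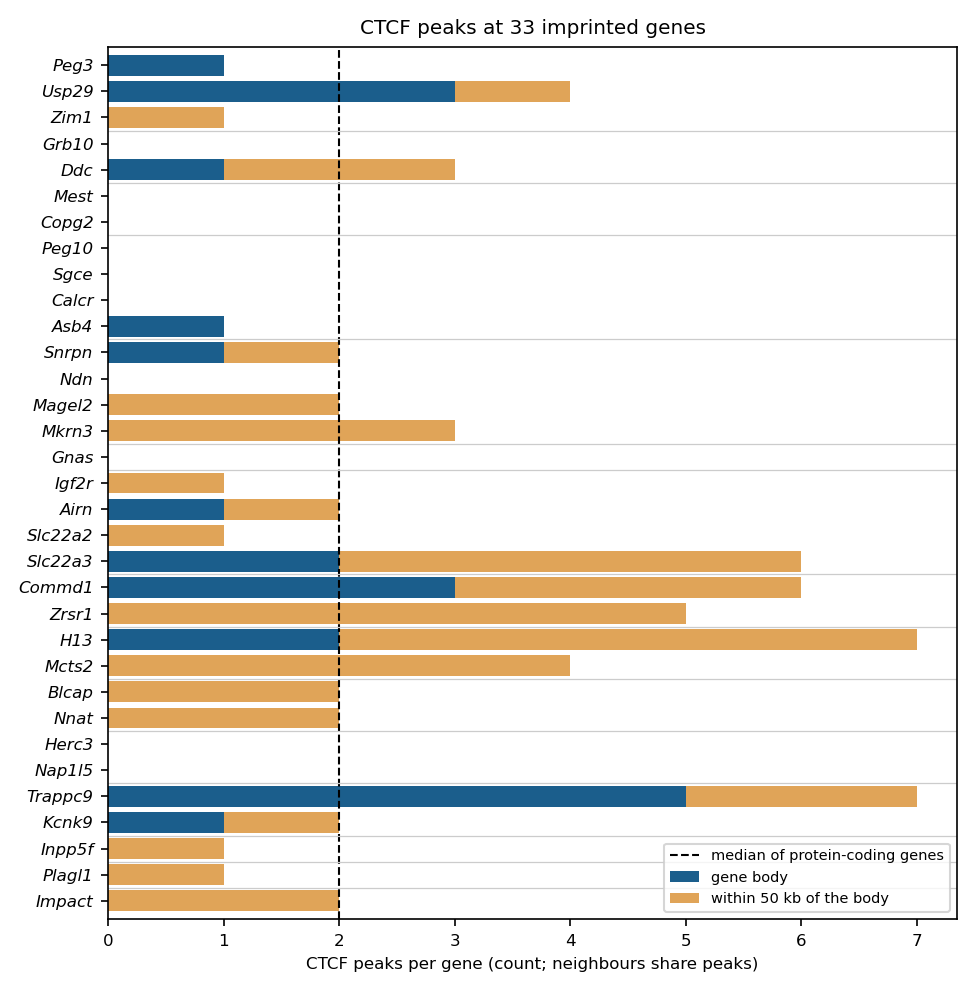
Number of CTCF peaks in the body (blue) and within 50 kb of it (orange) for each of the 33 imprinted genes, with grey lines between domains and the median of all protein-coding genes (2) as a dashed line. Bars run from 0 at 10 genes, among them Grb10, Mest, Peg10 and Gnas, to 7 at H13 and Trappc9, and neighbouring genes share peaks.

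The members differed widely among themselves. No peak was listed in the windows of 10 genes: Grb10, Mest, Copg2, Peg10, Sgce, Calcr, Ndn, Gnas, Herc3 and Nap1l5. All of these but Grb10, Ndn and Gnas lie on chromosome 6, where Asb4 was the only member with a peak. Chromosome 6 as a whole had 0.792 peaks per 100 kb. The chromosomes of Gnas, Ndn and Grb10 (2, 7 and 11) had 1.04, 1.01 and 2.13. At the other end, H13 and Trappc9 had 7 peaks each, Commd1 and Slc22a3 had 6, and Zrsr1 had 5. The remaining 18 genes had 1 to 4. The 50 kb border decided few of these: Slc22a2, just inside, had its only peak 49.2 kb away, and Ndn, just outside, had its nearest at 50.4 kb.

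Absence from this list does not by itself show absence of CTCF. As a reference, H19 lies beside an imprinting control region that is a textbook CTCF binding region of the unmethylated maternal allele, and the nearest listed peak was 32.6 kb from H19. Methylation was not measured, so whether CTCF was bound at that region in these cells is unknown. Reads of 37 nt can also be hard to place uniquely in repeated sequence. Whether this affected retrogenes with close relatives or the repeat-rich Snrpn region is unknown. Mapping and depth at the empty windows were not tested.

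The Peg3 domain on chromosome 7 held 4 peaks, and the widest lay just inside Peg3. Peg3 encodes a paternally expressed zinc finger protein, and Usp29, a paternally expressed ubiquitin peptidase gene, starts beside it in the opposite direction, with 96 bp between the 2 gene bodies. Their common promoter lies in the imprinting control region of the domain. The peak at 6727291 to 6727818 was 528 bp wide, wider than 96.9% of all peaks. Its midpoint lay 2.86 kb downstream of the Peg3 start and 3.03 kb upstream of the Usp29 start. It overlapped neither promoter window, and whether it lies inside the control region was not examined. This was the only peak in the window of Peg3 itself, and also the only one in that of Zim1, a maternally expressed zinc finger gene whose body ends 31.0 kb away from it.

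The other 3 peaks of the domain sat together in the far part of Usp29. They lay at 6918356 to 6918567, 6937233 to 6937458 and 6940831 to 6941074, with widths of 212, 226 and 244 bp. Counted from the Usp29 start they were 188, 207 and 210 kb downstream in a gene body of 237 kb. Midpoint to midpoint, the Peg3 peak and the first of them were 191 kb apart with no listed peak between. Usp29, with 4 peaks in all, had more than 64.6% of protein-coding genes in its length class, whereas Peg3, with 1, had more than 20.1%. On the other side of the Peg3 peak, the next listed peak was 201 kb away at 6526212 to 6526450, beyond Zim1 and Zim2.

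Grb10 had no peak, and all 3 peaks of its domain lay at the other end of Ddc. Grb10 encodes an adaptor that restrains insulin and IGF receptor signalling, expressed from the maternal allele in most tissues and from the paternal allele in neurons. Ddc encodes dopa decarboxylase and lies 32.4 kb away. The body of Ddc held a peak of 300 bp at 11820256 to 11820555, 6.30 kb inside its low-coordinate end, which is its 3′ side. A peak of 263 bp lay 1.94 kb beyond that end and one of 579 bp lay 25.4 kb beyond it. The last of these, at 11788438 to 11789016, was wider than 98.0% of all peaks and was the widest at any member. From the peak inside Ddc the list was empty for 471 kb, across the Ddc starts and the whole of Grb10, to a peak at 12291435 to 12291779 in the body of Cobl. On chromosome 11, 24.7% of the length between peaks lay in gaps at least that long, against 47.7% over all chromosomes.

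The Mest domain on chromosome 6 was empty. Mest is a paternally expressed gene of the hydrolase fold family that carries the microRNA gene Mir335, and Copg2, a coatomer subunit gene, overlaps its end by 913 bp. No peak was listed between 30535676 and 31033038, a gap of 497 kb that held 15 annotated genes, 9 of them protein-coding. The nearest peak to Mest was 198 kb away and the nearest to Copg2 136 kb. Of 7 listed neighbours, Cpa4 had 1 peak in its window, while Cpa5, Cpa1, Cep41, Mir335, Tsga13 and the imprinted Klf14 had none. The neighbours with none lie inside the same gap, more than 50 kb from its edges, so their zero counts follow from it.

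Peg10, Sgce and Calcr had no peak either. Peg10 is a retrotransposon-derived gene needed for the placenta, and Sgce encodes epsilon-sarcoglycan. Both are paternally expressed, and their bodies lie 101 bp apart. They shared a gap of 564 kb, from a peak 128 kb beyond Sgce to one 350 kb beyond Peg10, the latter in the body of Ppp1r9a at 5110473 to 5110727. Calcr, the calcitonin receptor gene, lay in a gap of 787 kb. Its nearest peak was 65.0 kb away. Asb4, an ankyrin repeat gene, was the exception in this group of 4, with 1 peak of 212 bp at 5401433 to 5401644, which was 11.1 kb downstream of its nearer start. Of 8 neighbours on the list, Ppp1r9a and Dlx5 had a peak in their windows.

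In the Snrpn domain on chromosome 7, 2 peaks lay around the farthest upstream start of Snrpn and 3 around Magel2 and Mkrn3. Snrpn encodes the splicing protein SmN, and its RefSeq body spans 468 kb because transcripts start far upstream. The peak in that body, 232 bp at 60387073 to 60387304, lay 63.0 kb downstream of the farthest start, and a peak of 191 bp lay 38.1 kb upstream of that start. From the start at 60005199, the one nearest the 3′ end, the nearest peak was 238 kb away. Ube3a, the neuronally imprinted ubiquitin ligase gene further along, had its nearest peak at 457 kb.

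The paternally expressed intronless genes Ndn, Magel2 and Mkrn3 lie 1898 kb from Snrpn. Ndn and Magel2, both of the MAGE family, sat in a gap of 1672 kb without a listed peak. It was the longest peak-free stretch at any member, and gaps at least as long make up 21.0% of all length between peaks. Magel2 had a peak 18.7 kb beyond its end, at 62400217 to 62400460. Mkrn3, a makorin ring finger gene, lay between that peak, 17.3 kb on one side, and a peak of 240 bp at 62428418 to 62428657, 8.38 kb upstream of its start. The last peak of the group, 188 bp at 62464546 to 62464733, was 0.130 kb outside the body of Peg12. All 5 peaks of the Snrpn domain were narrower than the median width of 262 bp.

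Gnas, which encodes the stimulatory G protein alpha subunit and has several imprinted promoters, was empty as well. The gap around it measured 529 kb, with the nearest peak 116 kb beyond its 3′ end, at 174462985 to 174463176. None of its 4 promoter windows overlapped a peak. The most upstream, which starts at 174284320, held a CTCF core match, gccacctgccgg, at 174284168 to 174284179 on the opposite strand. The nearest peak to that match was 179 kb away. The neighbours Nelfcd and Ctsz had 2 peaks each in their windows.

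**Figure D2:**
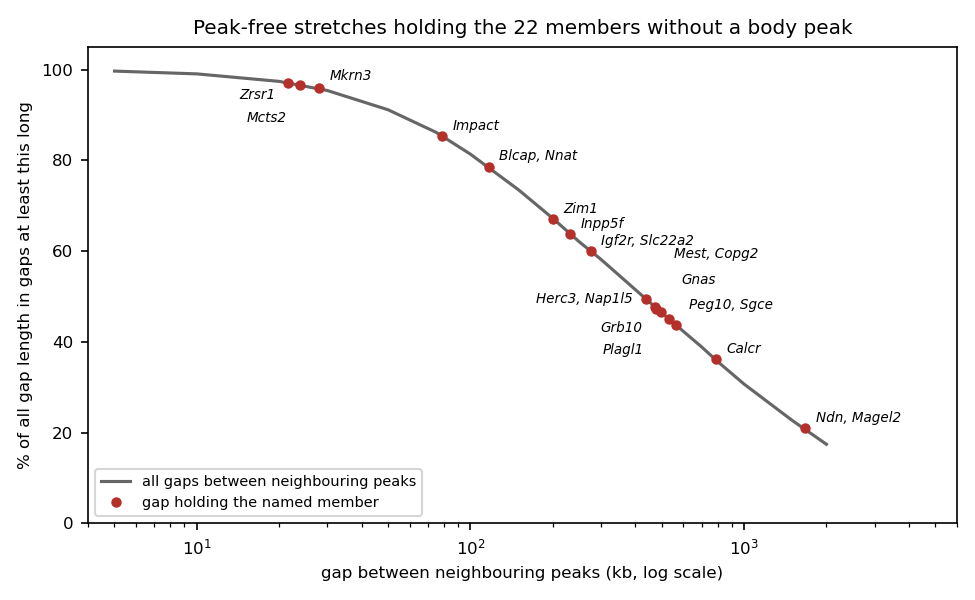
Share of all peak-free length that lies in gaps at least as long as the value on the horizontal axis (kb, log scale), over all chromosomes (grey line), with the gap holding each of the 22 members that had no peak in the body (red points). Herc3, Grb10, Plagl1, Mest, Gnas and Peg10 fall between 436 and 564 kb, and 49.5% to 43.6% of all peak-free length lies in gaps as long as these.

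The Igf2r domain on chromosome 17 held 8 peaks, with 6 around Slc22a3 and 2 upstream of Igf2r. Igf2r encodes the receptor that clears IGF2 and is maternally expressed. Airn, the paternally expressed non-coding RNA that silences it in cis, starts inside Igf2r, 28.4 kb from the Igf2r start, and runs in the opposite direction. The body of Igf2r, which contains the Airn start, held no peak. The Airn body held 1 peak of 269 bp at 12810511 to 12810779. It lay 69.3 kb downstream of the Airn start and 40.9 kb upstream of the Igf2r start. A second peak, 542 bp at 12880268 to 12880809 and wider than 97.2% of all peaks, lay 20.7 kb beyond the end of Airn.

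From the Airn peak the list was empty for 275 kb across Igf2r and Slc22a2. Slc22a2 and Slc22a3 encode organic cation transporters that are imprinted in the placenta. Between them lay a pair of peaks 2.66 kb apart, of 209 and 302 bp, at 24.6 and 27.3 kb upstream of the Slc22a3 start. The second of this pair was the only peak in the window of Slc22a2, 49.2 kb from its start. Slc22a3 had 2 further peaks in its body, one of 470 bp at 12421006 to 12421475 near its 3′ end and one of 227 bp at 12455239 to 12455465. Another, of 274 bp, lay 3.54 kb beyond the 3′ end, in the body of the plasminogen gene Plg. With 6 peaks, Slc22a3 had more than 85.7% of the protein-coding genes of its length class, while Igf2r and Slc22a2, with 1 each, had more than 17.7% and 19.8%. The promoter window of Slc22a2 held a CTCF core match, gcctgctctggg, and no peak overlapped it.

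**Figure D3:**
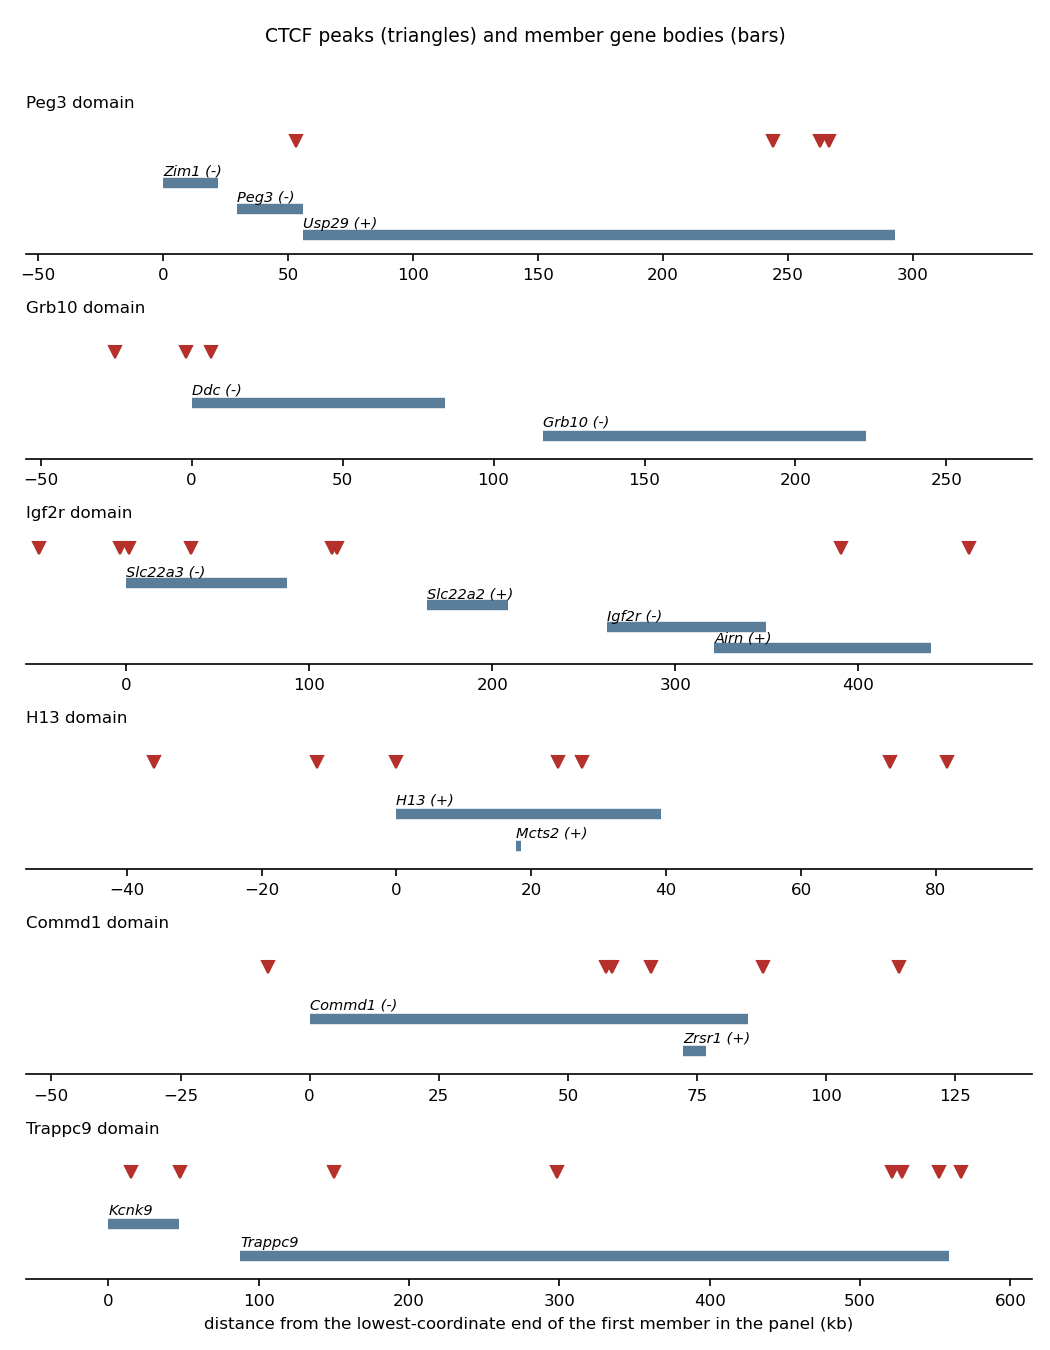
Positions of CTCF peaks (red triangles) and gene bodies (blue bars, with strand where the promoter table gives it) in 6 domains, as distance in kb from the low-coordinate end of the first gene in each panel. Peaks stand just inside Peg3 and far inside Usp29, at the 3′ side of Ddc and not at Grb10, around Slc22a3 and upstream of Igf2r, and around the nested genes Mcts2 and Zrsr1 without touching them.

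Host genes with a nested imprinted copy fell on both sides of the range. Nested genes are short retrogenes or intron genes, expressed from the paternal allele, whose promoters are methylated on the maternal allele. None of the nested genes Zrsr1, Mcts2, Nnat and Nap1l5 had a peak in its body, and none of their promoter windows overlapped one. Peaks are rare in such places: 7.7% of the protein-coding genes in the 3 shortest length classes, to which these 4 belong, had one in the body, and 3.58% of all promoter windows overlapped one.

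H13, which encodes signal peptide peptidase, carried 7 peaks, more than 93.0% of the protein-coding genes of its length class. The 297-bp peak at its start, 152669243 to 152669539, had its midpoint 70 bp upstream of the annotated start, the closest of any member. Mcts2, a retrogene inside H13, lay in a gap of 23.7 kb between this peak, 17.8 kb upstream of it, and a peak of 300 bp at 152693285 to 152693584, which was 5.49 kb beyond its end. A further peak of 273 bp followed 3.53 kb later. Peaks were dense in this region, with 2.89 per 100 kb within 1 Mb of the gene on each side, against 1.04 per 100 kb over chromosome 2, and 5.03 per 100 kb in the window itself.

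Commd1, a copper and NF-kappa-B regulator, had 6 peaks, 3 in its body. Zrsr1, a splicing factor retrogene nested in it, lay in a gap of 21.5 kb between a peak of 194 bp, 6.19 kb upstream of its start, and a peak of 233 bp, 11.0 kb beyond its end. The latter was also 2.97 kb outside the Commd1 body. Upstream of Zrsr1 a pair of peaks of 202 and 272 bp stood 1.06 kb apart. The window held 3.25 peaks per 100 kb, against 0.672 within 1 Mb on each side and 2.13 over chromosome 11. Only the 272-bp peak of this locus exceeded the median width, and the 185-bp peak 8.14 kb beyond the 3′ end of Commd1 was the narrowest at any member.

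Blcap, with the neuronatin gene Nnat inside it, had no peak in its body. Both peaks of its window lay on 1 side, at 31.1 and 38.8 kb upstream of the Blcap start, with widths of 269 and 354 bp. The window held 1.82 peaks per 100 kb, against 2.94 within 1 Mb on each side and 1.04 over chromosome 2. The count depends on the flank: 0 peaks lay within 25 kb and 8 within 100 kb. Herc3, a HERC-family ubiquitin ligase gene, and Nap1l5, a nucleosome assembly protein retrogene in its body, had none. The gap around them measured 436 kb, and only 6 peaks lay within 1 Mb on each side of Herc3. The listed neighbour Fam13a, which lies in the same gap, had no peak in its window either. Herc6 and Pyurf also had none, but they lie outside this gap, ending at 57665136 and 57692078, below its first flanking peak at 58772095.

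The windows of Trappc9 and Kcnk9 on chromosome 15 held 8 distinct peaks, 1 of them in both windows. Trappc9 encodes a trafficking complex subunit, contains the paternally expressed non-coding gene Peg13, and in brain is transcribed mainly from the maternal allele, as is the potassium channel gene Kcnk9. Kcnk9 had a peak of 384 bp in its body and one of 390 bp at 72549381 to 72549770, 0.962 kb outside its high-coordinate end and 40.0 kb from Trappc9. Of the 5 peaks in the Trappc9 body, 3 stood near its high-coordinate end with 6.91 and 24.2 kb between neighbours, the first of them 530 bp wide at 73022909 to 73023438. The later peaks of these 3 measured 192 and 246 bp, and the other 2 body peaks 208 and 205 bp. The 205-bp peak, at 72800431 to 72800635, lay 5.07 kb from Peg13, and Peg13 itself held none. With 7 peaks, Trappc9 had more than 87.0% of its length class.

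The remaining loci had few peaks. Plagl1, a paternally expressed zinc finger gene of growth control, had 1 peak of 257 bp at 13087338 to 13087594, 3.37 kb upstream of its start, and beyond it the list was empty for 477 kb over the gene and its neighbours Zc2hc1b, Ltv1 and Phactr2. Only 4 peaks lay within 1 Mb of it on each side. Inpp5f, a phosphoinositide phosphatase gene with an imprinted internal transcript, had 1 peak, 372 bp wide and 9.47 kb beyond its 3′ end in the body of Mcmbp. Impact, a translation regulator gene on chromosome 18, had 2 flanking peaks, at 6.33 and 34.3 kb from its ends, and none in its body.

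Measured from annotated starts, the distances of the members to CTCF overlapped those of other genes. The promoter table held 28 of the 33 genes, with 41 windows, and Impact, Kcnk9, Peg10, Sgce and Trappc9 were not among them. The nearest peak lay a median of 37.7 kb from a start (quartiles 7.86 and 76.1 kb), against 23.4 kb (7.19 and 79.7 kb) for 17492 protein-coding genes. Only H13 had one within 1 kb, which is 2.44% of the 41 windows, against 6.76% of all promoter windows. Under 10 kb were 28.6% of the 28 genes, against 30.9% of protein-coding genes. For Peg3, Usp29, Plagl1, Commd1, Zrsr1, Mcts2 and Mkrn3 the nearest peak was between 1 and 10 kb away. It was between 10 and 50 kb for 9 genes and between 50 and 100 kb for 5. For Gnas, Nap1l5, Copg2, Calcr, Mest and Grb10 it was over 100 kb. That is 21.4% of the 28, and 21.6% of protein-coding genes were as far.

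**Figure D4:**
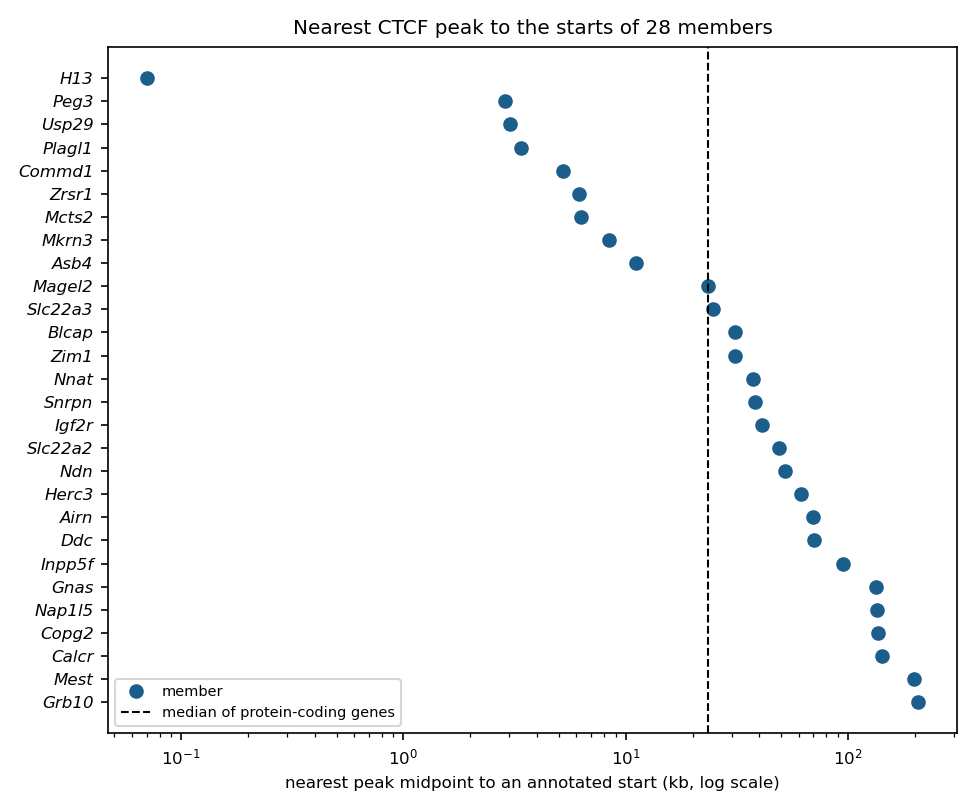
Distance from an annotated start to the midpoint of the nearest CTCF peak (kb, log scale) for the 28 members in the promoter table, each at its nearest start, with the median of protein-coding genes (23.4 kb) as a dashed line. H13 stands alone at 0.07 kb, the Peg3 and Usp29 starts follow at 2.86 and 3.03 kb, and Grb10 is farthest at 208 kb.

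By the median, the member promoters held more CpGs than all promoter windows, but the upper quartile was the same. Their median was 15 CpGs per 300 bases (quartiles 7 and 20), against 7 (3 and 20) over 32817 promoter windows. Those windows came from 26993 genes, non-coding ones included, whereas nearly all members are protein-coding. Close starts of the same gene, as at Mest and Gnas, gave overlapping windows that were counted separately. Grb10 had the most at 45, in the window at 12037371 to 12037670 of chromosome 11, followed by 40 in a Gnas window. A peak overlapped 1 of the 41 windows (2.44%), where 3.58% of all promoter windows were overlapped. The CTCF core spelled out for H13, searched on both strands, matched in 3 of the 41 (7.32%), against 8.61% of all windows and 39.5% of the windows that a peak overlapped. H13 was the 1 match with a peak, and Gnas and Slc22a2 were the others. The YY1 core GCCATNTT matched in 1 of 41, at Mkrn3 (aacatggc), and in 6.04% of all windows. No match lay in the Peg3 or Usp29 window, but only the 300 bases around each start were searched. The rest of the Peg3 control region was not examined. A match is a run of letters only.

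The 48 peaks had a median width of 253 bp (quartiles 214 and 308 bp, range 185 to 579 bp), against 262 bp (217 and 317 bp) for all peaks. Those of at least 500 bp numbered 4, one each at Peg3, Ddc, Trappc9 and beyond Airn, and 4.05% of all peaks were that wide. The authors' list gives no height, so width was the only property of a peak beyond its position.

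Among the other genes of the same domains, taken from a list of 61 names of which 56 were in the table, 33 had a peak in their windows (58.9%) and 11 in their bodies (19.6%), against the 74.1% and 29.5% given above. For comparison, 13 of 14 genes of the H19-Igf2 and Kcnq1 domain had a peak in the window, with a median of 3.5, and 3 of 6 genes of the Dlk1-Meg3 domain did, with a median of 0.5. Genes of a domain share peaks, so these counts are not independent, and the differences were not tested.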

How the data were processed

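CTCF was immunoprecipitated from formaldehyde-fixed, sonicated chromatin with a Drosophila spike-in, per the labels' protocols. STAR, Picard and MACS2 and the builds mm10 and dm6 are named in the submitters' processing notes, without roles. The peak threshold, the merging rule and any use of the spike-in have no description among those sources. The deposited file of the authors has 3 columns, chromosome, start and end, which are positions with no normalisation and no score. Depth per library is unknown.

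Coordinates are on mm10, counted from 1. Gene bodies and promoters came from RefSeq for GRCm38.p6. Distances run from peak midpoints. Genes off chromosomes 1 to 19, X and Y, and 340 genes placed below 3 Mb, were left out of the background, which left 21779 protein-coding genes. All members were named, with the peaks nearest their ends and the widest peak of each domain. The members, neighbour lists and rules were chosen with earlier results of these data known, and the lists for the other imprinted domains after the peaks were seen. No chance test was made. The counting code was tested on simulated data. Python 3.11.15, numpy 2.4.6, pandas 2.3.3 and matplotlib 3.10.9 were used. Alternatives were any overlap, flanks of 10, 25 and 100 kb, peaks of at least median width, merging within 500 bp, gene ends within 500 bp or 2.5 kb, and starts alone.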

Additional observations from a re-analysis of the deposited data

How the results depend on the processing

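The number of members with a peak in the window or in the body stayed within 1.5 times its reported value under every alternative run. With a peak in the window there were 17 members with 10 kb flanks (51.5%, against 50.8% of protein-coding genes). With 25 kb flanks there were 18 (54.5% against 64.1%), and with 100 kb flanks 26 (78.8% against 81.8%). With peaks of at least median width, 23 distinct peaks were left in place of 48. By its definition that cut removes a like share of the whole list, so lower counts with it are built into the setting. With 100 kb flanks the median per window was 2 in place of 1, against 3 for protein-coding genes. With flanks of 10 or 25 kb, or with the wide peaks, it was 1 for both. In place of 2, members with a peak at an end numbered 1 within 500 bp (3.03%, against 7.82% of protein-coding genes). Within 2.5 kb they numbered 4 (12.1% against 21.2%). At starts alone there was 1, H13 (3.03% of all members, those without a start in the promoter table included). Kcnk9 is among those without a start, so its peak at an end could not be counted in that setting. Whether that peak lies at the Kcnk9 start was not tested. The share over protein-coding genes was not computed for starts alone. Mest and Gnas had 0 peaks under every alternative, and Herc3 had 2 with 100 kb flanks. Of the 15 domain counts, 8 moved by more than 1.5 times with the wide peaks, 5 with 10 kb flanks, 4 with 25 kb, 6 with 100 kb and 0 with any overlap or merging. Among the wide peaks, Peg3 kept 1 of 4 and the Snrpn domain 0 of 5. No paired analysis was possible because no interval is tied to a library. For the same reason no library could be left out. Depth and heights are unknown, so weak binding cannot be told from none.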
